A study of Macaca fascicularis with 6 samples.

Results

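The insulin-like growth factor (IGF) system was followed through 9 genes in single cells of the cynomolgus monkey. The genes were taken by name: the ligands *IGF1* and *IGF2*, the receptor *IGF1R*, and 6 genes of the IGF binding protein (IGFBP) family, *IGFBP2* to *IGFBP7*. All 9 are among the 13950 genes of a matrix of 2 conditions and the 14020 genes of a matrix of 4 conditions. The study asked what became of a cartilage organoid grown from induced pluripotent stem cells (iPSCs) after it was placed in a damaged joint, and 5 kinds of cells were sequenced. The cyiPSCs belong to 1 monkey iPSC line, 1466A1, in which EGFP stands at the AAVS1 locus under the CAG promoter and which was kept on feeder cells of mouse embryonic fibroblasts. The pre-transplant cyiPS-Cart is cartilage made from that line in medium with BMP2, TGFβ1, GDF5 and a supplement that contains insulin. The post-transplant cyiPS-Cart is the same cartilage 4 months after it was set, as an allograft, into chondral defects in the knees of monkeys of 3 to 4 years. From monkeys of that age also came cyAC, intact articular cartilage, and cyFT, the fibrous tissue that filled defects in which nothing had been placed. Each condition is 1 sample. At each time 3 monkeys of each group, transplanted or left empty, were taken and 2 transplanted sites of a monkey were combined, but which and how many of them a sequenced sample holds is not given in the sources used here.

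IGF1 and IGF2 are secreted growth factors that signal through the tyrosine kinase receptor IGF1R. IGF1 mediates much of the action of growth hormone on growth plate and articular cartilage, where it promotes matrix synthesis, and IGF2 is a growth factor of fetal tissues whose gene is imprinted in mammals. Outside the cell, most IGF is held by binding proteins, which can block its access to the receptor or store it in the matrix, and proteases release it again. IGFBP7 belongs to the family by sequence but binds IGFs with low affinity.

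The values are read counts per gene and cell made by TAS-Seq, a bead-based single-cell method. The cyiPSC and pre-transplant cells shared a library, cyAC and cyFT shared another, and post-transplant cells had a library of their own, so that post-transplant cyiPS-Cart cannot be told apart from its library in any comparison. The 2-condition matrix holds 2500 cyiPSCs and 3527 pre-transplant cells, and the 4-condition matrix holds 320 cells of each of the other conditions and of pre-transplant cyiPS-Cart, 300 of which are also in the 2-condition matrix. Median reads per cell ranged from 27499.5 in cyFT to 143075 in cyiPSC, and summed reads from 11087496 to 415457877. Levels are summed reads per 1000000 reads of the condition (CPM) with exact Poisson 95% intervals, and shares of cells have exact Clopper-Pearson 95% intervals. Both cover counting error only, and without replicate samples no test was made. Markers followed the labels in part. *SOX2*, a gene of pluripotent cells, was read in 97.2% of cyiPSCs, *COL2A1*, the collagen of hyaline cartilage, in 87.2% of cyAC and 97.5% of post-transplant cells, and *COL1A1*, a collagen of fibrous tissue, in 63.4% of cyFT cells and 5.94% of cyAC cells. *COL2A1* was also read in 36.6% of cyFT cells, and *COL1A1* in 24.1% of pre-transplant cells of the 4-condition matrix and 16.9% of post-transplant cells. The 10 fibroblast markers summed to 79644 CPM after transplantation, above cyFT at 52914 CPM and cyAC at 16428 CPM. The 10 listed chondrocyte markers were also highest there, at 85773 CPM against 77806 CPM in cyAC and 38273 CPM in cyFT. *PRG4*, the lubricin gene of superficial cartilage, was at 6419 CPM in cyFT and 4986 CPM in cyAC. It was at 1289 CPM after transplantation and 538 CPM in the pre-transplant cells of the 4-condition matrix. The EGFP transcript was read in every cyiPSC, pre-transplant and post-transplant cell and in 0 of 320 cells of cyAC and of cyFT. A count of 0 was read as up to 3 counts, here a share of 0.938%, and the exact upper limit is 1.15%.

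*IGF2* was the ligand read in the cartilage samples, and post-transplant cyiPS-Cart had the highest level. Its level was 7.58 CPM in cyiPSC (7.32 to 7.85), 851 CPM in the pre-transplant cells of the 2-condition matrix (848 to 855) and 827 CPM in those of the 4-condition matrix (815 to 839), 2788 CPM in post-transplant cyiPS-Cart (2769 to 2807), 518 CPM in cyAC (505 to 531) and 86.7 CPM in cyFT (81.3 to 92.3). No 2 neighbouring conditions in that order had overlapping counting intervals. A read of *IGF2* was seen in all 320 post-transplant cells and in 318 of 320 pre-transplant cells, but in 77.8% of cyAC cells (72.9 to 82.2) and 36.6% of cyFT cells (31.3 to 42.1). Because deeper cells show more genes, shares were also taken with every cell thinned to the same depth. At 12191 reads per cell they were 97.1%, 99.5%, 71.7% and 27.5% in the order pre-transplant, post-transplant, cyAC, cyFT. In cyiPSC, 44.6% of cells held an *IGF2* read and 16.0% did so after thinning to 30967 reads, against 99.5% of the pre-transplant cells of the same library. The cyiPSCs that held one had a median of 10.1 CPM, where the pre-transplant cells had 789 CPM.

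*IGF1* was close to absent from every sample. The level was 0.132 CPM in cyiPSC, 0.399 and 0.704 CPM in the larger and the smaller set of pre-transplant cells, 7.44 CPM in cyAC (5.97 to 9.17) and 8.30 CPM in cyFT (6.69 to 10.2), the last 2 of which have overlapping intervals. No read fell in the 320 post-transplant cells. Set against a floor of 3 reads in the sample, *IGF1* was at least 74.0-fold lower there than in cyAC and at least 82.5-fold lower than in cyFT, and the exact 95% lower limits, which count the error of both samples, were 58.97-fold and 65.8-fold. Few cells carried it: 7 of 320 cells held a read in cyAC and 19 of 320 in cyFT, and 50% of the cyAC reads came from 1 cell, without which the level there was 3.74 CPM and the bound from the floor 37.1-fold. In both tissues no read fell in cells with *COL2A1* and no *COL1A1* reads, so the folds rest on the other cells.

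**Figure D1:**
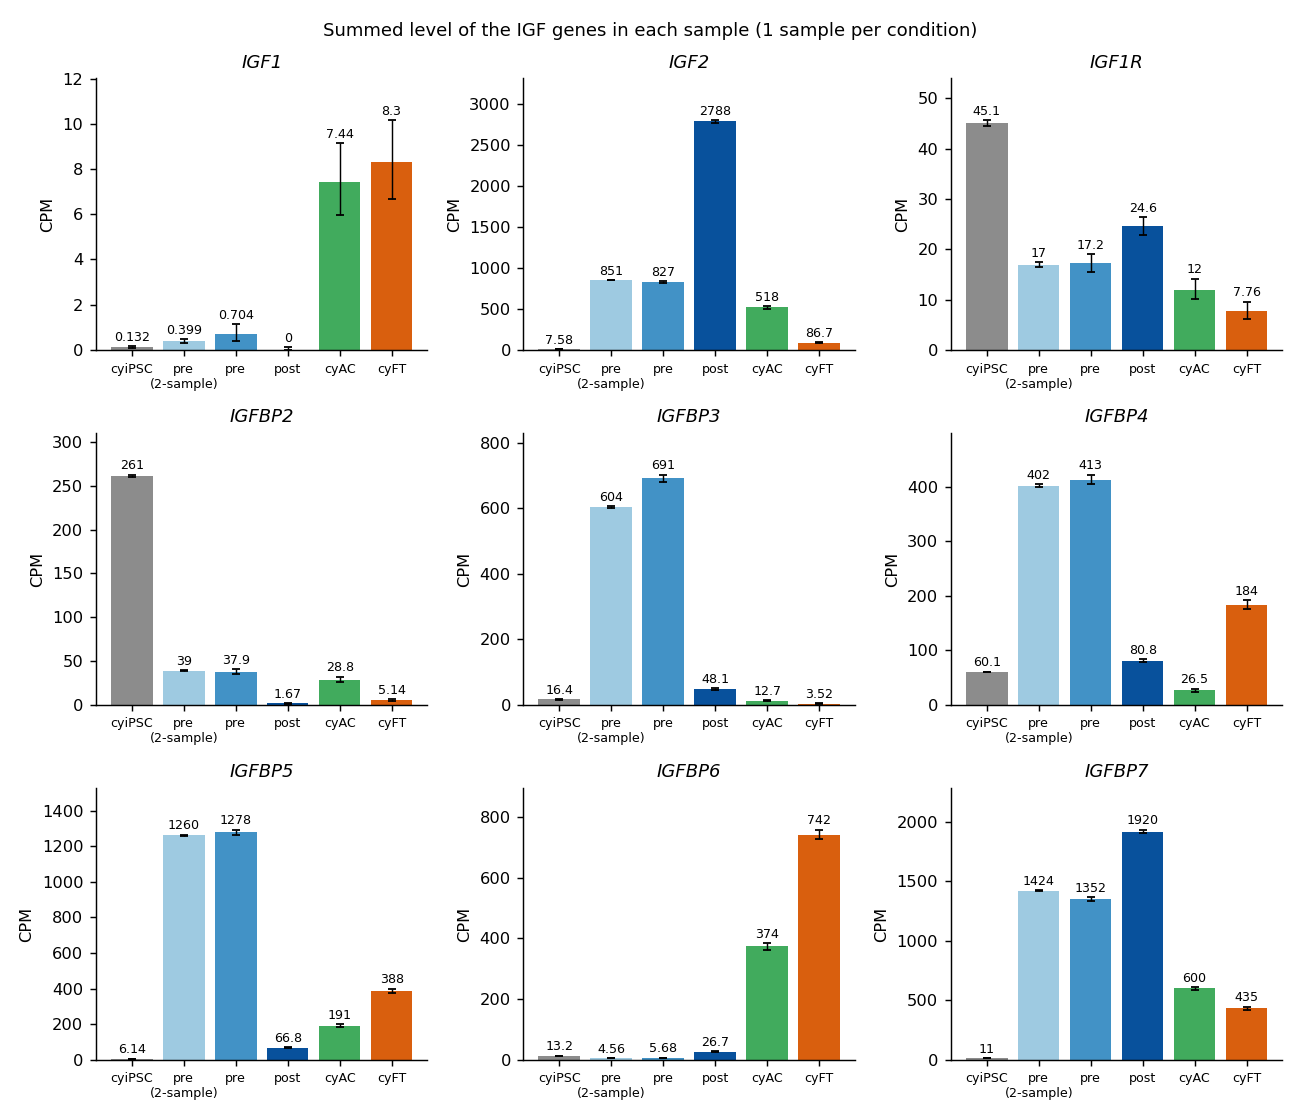
Summed level of each gene (CPM, linear axis from 0) in each sample, with bars for the 5 conditions, pre-transplant cyiPS-Cart shown for both matrices, and error bars for the 95% counting interval. *IGF2* is highest in post-transplant cyiPS-Cart at 2788 CPM, *IGFBP5* in pre-transplant cells at 1260.3 to 1278 CPM, and *IGFBP6* in cyFT at 742 CPM.

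*IGF1R* was low throughout. It was at 45.1 CPM in cyiPSC, 17.0 and 17.2 CPM in the pre-transplant sets, 24.6 CPM in post-transplant cyiPS-Cart, 12.0 CPM in cyAC and 7.76 CPM in cyFT. A read was seen in 72.8% of cyiPSCs (53.2% after thinning) and in 23.0% of the pre-transplant cells of that library (18.97% after thinning). Between pre- and post-transplant cells the level and the share of cells with a read go opposite ways (17.2 CPM and 23.1% against 24.6 CPM and 15.0%). At equal depth the shares were 12.0% and 10.5%. With at least 10 reads they were 2.19% and 8.75%, in the direction of the level. As the measures differ, no order is read between these cells. *IGF2R*, which takes IGF2 to the lysosome and does not carry the IGF growth signal, is given beside it as a gene picked after its values were seen. It was at 129.7 CPM in cyiPSC, 928 CPM in the pre-transplant cells of the 4-condition matrix, 890.5 CPM in post-transplant cyiPS-Cart, 262 CPM in cyAC and 305 CPM in cyFT.

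Each tissue had its own make-up of binding proteins. Of all IGFBP reads, *IGFBP2* took 71.0% in cyiPSC (70.7 to 71.2), and *IGFBP4* followed with 16.3%. In pre-transplant cyiPS-Cart the reads were spread over *IGFBP7* at 35.8% (35.5 to 36.1), *IGFBP5* at 33.8% (33.5 to 34.1), *IGFBP3* at 18.3% and *IGFBP4* at 10.9%. After transplantation *IGFBP7* alone took 89.6% (89.3 to 89.8), and no other gene exceeded 3.77%. In cyAC *IGFBP7* took 48.7% (47.9 to 49.5), *IGFBP6* 30.3% and *IGFBP5* 15.5%. In cyFT the order turned, with *IGFBP6* at 42.2%, *IGFBP7* at 24.7%, *IGFBP5* at 22.1% and *IGFBP4* at 10.5%. *IGFBP1*, a binding protein made in liver, had 35 reads in cyiPSC and 0 in every other sample. These are shares of reads, not corrected for transcript length, so they say less about the order of 2 genes in 1 sample than about the same gene in 2 samples.

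The leading gene of a sample was also the leading gene of most or many of its cells. *IGFBP2* had the most IGFBP reads in 89.7% of cyiPSCs (88.5 to 90.9) and *IGFBP7* in 92.8% of post-transplant cells (89.4 to 95.4). In pre-transplant cyiPS-Cart *IGFBP7* led in 43.1% of cells, *IGFBP5* in 35.0%, *IGFBP3* in 15.3% and *IGFBP4* in 5.94%. In cyAC *IGFBP7* led in 60.6% and *IGFBP6* in 24.4% of cells. In cyFT *IGFBP6* led in 46.25%, *IGFBP7* in 23.8%, *IGFBP5* in 15.3% and *IGFBP4* in 9.69%. The median cell held reads of 4 IGFBP genes in pre-transplant cyiPS-Cart, of 3 in cyFT, and of 2 in post-transplant cyiPS-Cart, cyAC and cyiPSC. The summed level of all IGFBP genes was 368 CPM in cyiPSC, 3778 CPM in the pre-transplant cells of the 4-condition matrix, 2145 CPM in post-transplant cyiPS-Cart, 1232 CPM in cyAC and 1757 CPM in cyFT. Without *IGFBP7* the post-transplant sum was 224 CPM, the lowest of the 5 conditions.

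**Figure D2:**
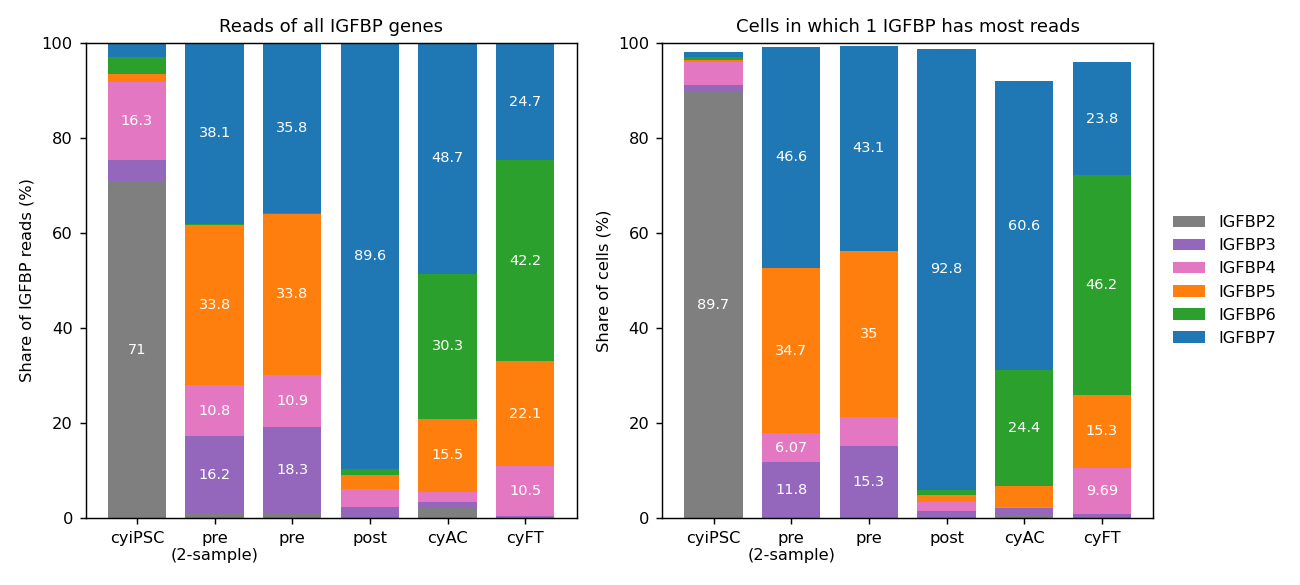
Left, the share of all IGFBP reads (%) that each binding protein takes in each sample; right, the share of cells (%) in which it has more reads than any other IGFBP gene, where cells with a tie or no IGFBP read make up the rest to 100%. *IGFBP2* fills most of the cyiPSC bar (71.0% of reads), *IGFBP7* most of the post-transplant bar (89.6%), and *IGFBP6* the largest piece of cyFT (42.2%).

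*IGFBP2*, abundant in fetal and stem cells, was at 261 CPM in cyiPSC, 39.0 CPM in the pre-transplant cells of that library, 1.67 CPM in post-transplant cyiPS-Cart, 28.8 CPM in cyAC and 5.14 CPM in cyFT. In post-transplant cyiPS-Cart all 50 reads came from 1 of 320 cells. In pre-transplant cyiPS-Cart 33.3% of cells held a read (27.6% after thinning). The cyiPSCs shared that library, and *SOX2*, at 279 CPM in cyiPSC and so near *IGFBP2* in level, was at 5.04 CPM in those pre-transplant cells with a read in 18.4% of them (10.46% after thinning). In cyAC, 98.8% of the *IGFBP2* reads lay in the 16 cells with most of them.

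*IGFBP3*, the main carrier of IGFs in serum, and *IGFBP5*, which binds to extracellular matrix, were highest in pre-transplant cyiPS-Cart. *IGFBP3* was at 16.4 CPM in cyiPSC, 604 and 691 CPM in the pre-transplant sets, 48.1 CPM in post-transplant cyiPS-Cart, 12.7 CPM in cyAC and 3.52 CPM in cyFT, and it was read in 69.4% of pre-transplant and 30.3% of post-transplant cells of the 4-condition matrix. The pre-transplant cells have no *IGFBP3* count from 1 to 7, and the shares were 67.6% and 18.9% at equal depth and 65.0% and 13.1% with at least 10 reads. *IGFBP5* was at 6.14 CPM in cyiPSC, 1260.3 and 1278 CPM in the pre-transplant sets, 66.8 CPM in post-transplant cyiPS-Cart, 191 CPM in cyAC and 388 CPM in cyFT. It was read in 88.8% of pre-transplant cells, 18.4% of post-transplant cells, 26.3% of cyAC cells and 51.9% of cyFT cells. The authors set counts taken for background to 0, and a cell of the pre-transplant library has either no *IGFBP5* read or at least 9, and a post-transplant cell none or at least 8. With a minimum of 10 reads in every sample, *IGFBP5* was seen in 88.4% of pre-transplant, 15.9% of post-transplant, 7.50% of cyAC and 26.3% of cyFT cells.

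*IGFBP4*, an inhibitor of IGF action, was at 60.1 CPM in cyiPSC, 402 and 413 CPM in the pre-transplant sets, 80.8 CPM in post-transplant cyiPS-Cart, 26.5 CPM in cyAC and 184 CPM in cyFT. Its share of cells was 54.7% in post-transplant cyiPS-Cart and 45.3% in cyFT, against the order of the levels, but at equal depth the shares were 31.2% and 38.9%. *IGFBP6*, which prefers IGF2 to IGF1, was highest in cyFT and cyAC. It was at 13.2 CPM in cyiPSC, 4.56 and 5.68 CPM in the pre-transplant sets and 26.7 CPM in post-transplant cyiPS-Cart, but at 374 CPM in cyAC (363 to 385) and 742 CPM in cyFT (726 to 758). A read was seen in 56.3% of cyAC cells and 82.2% of cyFT cells, against 6.56% of pre-transplant and 10.0% of post-transplant cells, which were sequenced deeper. The post-transplant cells, however, have no *IGFBP6* count from 1 to 8. With at least 10 reads the shares were 23.4% in cyAC, 52.2% in cyFT, 1.25% before and 9.38% after transplantation. *IGFBP7* was at 11.0 CPM in cyiPSC, 1424 and 1352 CPM in the pre-transplant sets, 1920.5 CPM in post-transplant cyiPS-Cart, 600 CPM in cyAC and 435 CPM in cyFT. It was read in 98.1% of post-transplant, 91.3% of pre-transplant, 82.8% of cyAC and 75.3% of cyFT cells, and in 4.84% of cyiPSCs.

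The differentiation of cyiPSCs into cartilage was compared within 1 library. A gene was compared where its mean over the 2 samples was at least 20 CPM, and it was called where the log2 ratio of CPM + 1 was at least 1 in size, a rule of size that carries no error. Of the 7 IGF genes compared, 5 were called higher in pre-transplant cyiPS-Cart, where 16% of the 6388 genes compared were, and 2 were called lower, where 35.5% were. In cyiPSC *IGF2*, *IGFBP3*, *IGFBP5* and *IGFBP7* were at 7.58, 16.4, 6.14 and 11.0 CPM, so they passed the filter only through pre-transplant cyiPS-Cart. Their direction was thus set by the filter. The genes were also chosen with earlier results known, so these counts are a description only. *IGFBP5* was 205-fold higher (198 to 214), *IGFBP7* 129-fold (126 to 133), *IGF2* 112-fold (108 to 116), *IGFBP3* 36.9-fold (36.0 to 37.8) and *IGFBP4* 6.69-fold (6.59 to 6.78). The cyiPSC side of the large ratios is thin. How much of the *IGF2* level of cyiPSC was RNA carried over within the shared library was not tested. Most of its *IGFBP7* reads lay in the 44 cells with *COL1A1* reads (214 CPM) and the 6 with *COL2A1* alone (359 CPM), while the other 2450 cells were at 4.02 CPM. As the mean of the cells' own CPM, *IGFBP7* was at 26.3 CPM in cyiPSC in place of 11.0 CPM, and that library has no low nonzero counts of *IGFBP3*, *IGFBP5* and *IGFBP7*. *IGFBP2* was 6.69-fold lower (6.55 to 6.83) and *IGF1R* 2.66-fold lower (2.57 to 2.75). The median log2 ratio of the 7 was 5.12, and that of all genes compared -0.56. Scaling by TMM factors, which trim extreme genes, shifted log2 ratios upward by up to 0.67, raised the share of higher genes among all calls from 31.1% to 59.5%, and left *IGF1R* at a log2 ratio of -0.71, short of the call.

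Among the genes compared, the graft before and after transplantation differed by over 2-fold in *IGF2* and in 3 binding proteins, and by less in *IGFBP7*. Of 6 IGF genes compared, 1 was called higher in post-transplant cyiPS-Cart (6.77% of 5378 genes were) and 3 lower (18.4% were). *IGF2* was 3.37-fold higher (3.32 to 3.43). *IGFBP5* was 19.1-fold lower (18.29 to 20.04), *IGFBP3* 14.4-fold lower (13.6 to 15.2) and *IGFBP4* 5.11-fold lower (4.89 to 5.35). The first and second of these fell in the lowest 0.242% and 0.409% of all genes compared. *IGFBP7* was 1.42-fold higher (1.40 to 1.44) and did not reach 2-fold. *IGF1R* had a ratio of 1.43 in reads (1.26 to 1.63) against a lower share of cells with any read, as given above, and is not ordered. *IGFBP2* and *IGFBP6* were below the mean of 20 CPM, with ratios of 22.7-fold lower and 4.70-fold higher. All genes compared had a median log2 ratio of -0.29. With TMM factors the calls among the IGF genes stood, while the share of higher genes among all calls went from 26.9% to 44.0%.

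The fibrous tissue was compared with articular cartilage within 1 library. Of 5 IGF genes compared, 2 were called higher in cyFT (8.31% of 5605 genes were) and 1 lower (3.35% were). *IGFBP4* was 6.94-fold higher (6.16 to 7.84) and *IGF2* 5.97-fold lower (5.58 to 6.40). Within cells with *COL1A1* reads *IGFBP4* was at 233 CPM in cyFT and 259.9 CPM in cyAC, but the cyAC value was 168 CPM without 1 of its 19 cells. Within cells with *COL2A1* alone it was at 6.92 CPM in cyFT and 3.68 CPM in cyAC. Without the top cell of each, these were 2.72 and 2.62 CPM. In cells with neither collagen it was at 646 and 125 CPM with all cells. *IGFBP5*, 2.04-fold higher (1.93 to 2.14), and *IGFBP6*, 1.99-fold higher (1.92 to 2.06), lie on either side of the line, with log2 ratios of 1.02 and 0.99. With all cells counted, neither was higher in cyFT beyond its interval within any class of cells divided by collagen, as given further on. Without the top cell of the gene, *IGFBP5* was higher in cyFT in cells with *COL1A1* reads and in those with neither collagen. The classes held other shares of the cells in each tissue, and the part of this in the sums was not tested. *IGFBP7* was 1.38-fold lower. TMM factors brought *IGFBP5* to a log2 ratio of 0.84 and the share of higher genes among all calls from 71.3% to 54.9%.

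The transplanted cartilage was then set beside cyAC and cyFT, which came from another library. Against cyAC, 4 of 6 IGF genes were called higher (8.86% of 5314 genes were) and 2 lower (14.8% were). *IGFBP3*, at 12.7 CPM in cyAC and 3.52 CPM in cyFT, passed the mean of 20 CPM only through the graft, here and against cyFT. *IGF2* was 5.39-fold higher (5.25 to 5.53), *IGFBP3* 3.79-fold, *IGFBP7* 3.20-fold and *IGFBP4* 3.05-fold. *IGFBP6* was 14.0-fold lower (13.0 to 15.1) and *IGFBP5* 2.85-fold lower (2.69 to 3.03). The *IGFBP5* level of cyAC rests in part on 1 cell, which held 33.2% of its reads and without which it was 128 CPM. Its direction also turned with the class of cell: among cells with *COL2A1* and no *COL1A1* reads *IGFBP5* was at 61.0 CPM after transplantation (265 cells) and 28.5 CPM in cyAC (276 cells), so that the lower sum of the graft rests on the other 44 cyAC cells. *IGFBP4* was at 63.1 against 3.68 CPM in that class and at 156 CPM (145 to 167) against 259.9 CPM (222 to 302) in cells with *COL1A1* reads. The last value was 168 CPM without 1 of 19 cyAC cells, which the interval does not cover. Most graft cells with *COL1A1* reads also held *COL2A1* reads, unlike those of cyAC, so no turn is read for *IGFBP4*. Against cyFT, 3 of 6 were called higher (6.16% of 5585 genes were) and 3 lower (19.6% were). *IGF2* was 32.2-fold higher (30.2 to 34.3), *IGFBP3* 13.7-fold and *IGFBP7* 4.42-fold. *IGFBP6* was 27.8-fold lower (25.8 to 29.9), *IGFBP5* 5.81-fold and *IGFBP4* 2.27-fold. The last 2 also turned by class: among cells with *COL2A1* and no *COL1A1* reads *IGFBP5* was at 61.0 CPM after transplantation and 12.1 CPM in cyFT (84 cells), and *IGFBP4* at 63.1 and 6.92 CPM. TMM factors left *IGFBP4* at a log2 ratio of -0.84, short of the call, and moved the share of higher genes among all calls from 23.9% to 49.4%. These comparisons and the previous ones share samples and are not independent of each other.

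**Figure D3:**
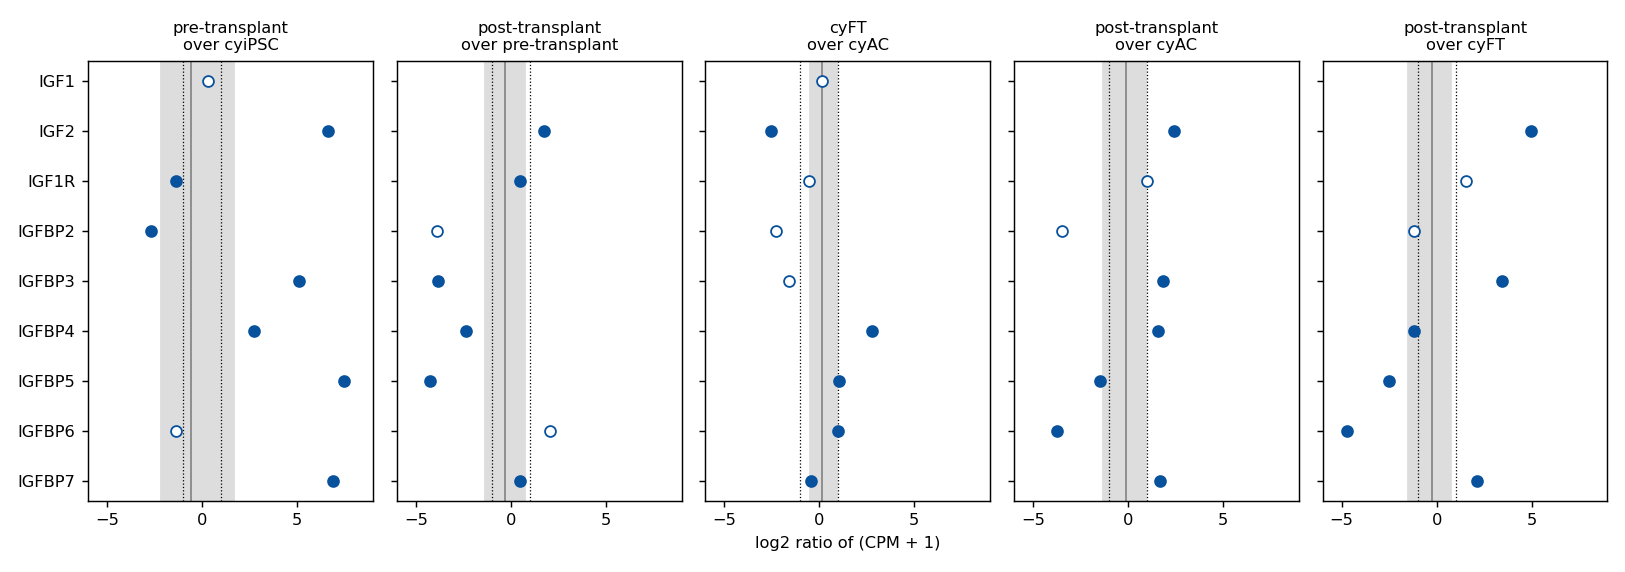
Log2 ratio of CPM + 1 of each gene in 5 comparisons. Filled points are genes with a mean of at least 20 CPM, open points genes below it, the grey band spans the 10th to the 90th percentile of all genes compared, the grey line is their median, and dotted lines mark 2-fold. Genes at 0 in a sample are not drawn. *IGFBP5* goes from a log2 ratio of 7.47 in pre-transplant over cyiPSC to -4.24 in post- over pre-transplant cyiPS-Cart, while *IGF2* is positive in both at 6.63 and 1.75.

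The balance of binding protein and ligand reads moved over a wide range. Summed over *IGFBP1* to *IGFBP6*, there were 46.2 reads per read of *IGF1* and *IGF2* in cyiPSC, 2.93 (2.88 to 2.98) in pre-transplant cyiPS-Cart, 0.0804 (0.0784 to 0.0824) in post-transplant cyiPS-Cart, 1.20 (1.16 to 1.24) in cyAC and 13.9 (13.1 to 14.8) in cyFT. Summed over all cells, post-transplant cyiPS-Cart was thus the 1 condition with fewer reads of these binding proteins than of the ligands. Ligand reads also led in the 276 cyAC cells with *COL2A1* and no *COL1A1* reads. There *IGF2* was at 579 CPM, against *IGFBP6* at 203 CPM, *IGFBP5* at 28.5 CPM and *IGFBP4* at 3.68 CPM. *IGFBP7* reads per ligand read ranged from 0.689 in post-transplant cyiPS-Cart to 4.58 in cyFT. The ratio counts transcripts by their reads and carries no correction for length.

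Cells of 1 sample were alike in *IGF2* in the graft and unlike in several binding proteins. *IGF2* was read in nearly all graft cells, with a median cell at 769 CPM and the 10th and 90th percentile at 225 and 1524 CPM before transplantation, and at 2546, 863 and 4991 CPM after it. In cyAC the median was 302 CPM with a 10th percentile of 0, and in cyFT the median cell had 0. The median cell of *IGFBP5* went from 1009 CPM before to 0 after transplantation, where the 90th percentile was 189 CPM. For *IGFBP4* the medians were 378 and 9.11 CPM, and for *IGFBP3* 360 and 0 CPM. Of the post-transplant *IGFBP5* reads, 66.4% lay in the 16 cells with most of them, against 24.2% before transplantation. In cyAC the same number of cells held 89.3% of the *IGFBP5* reads, 93.3% of the *IGFBP4* reads and 52.0% of the *IGFBP6* reads, but 30.5% of the *IGFBP7* and 29.3% of the *IGF2* reads.

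**Figure D4:**
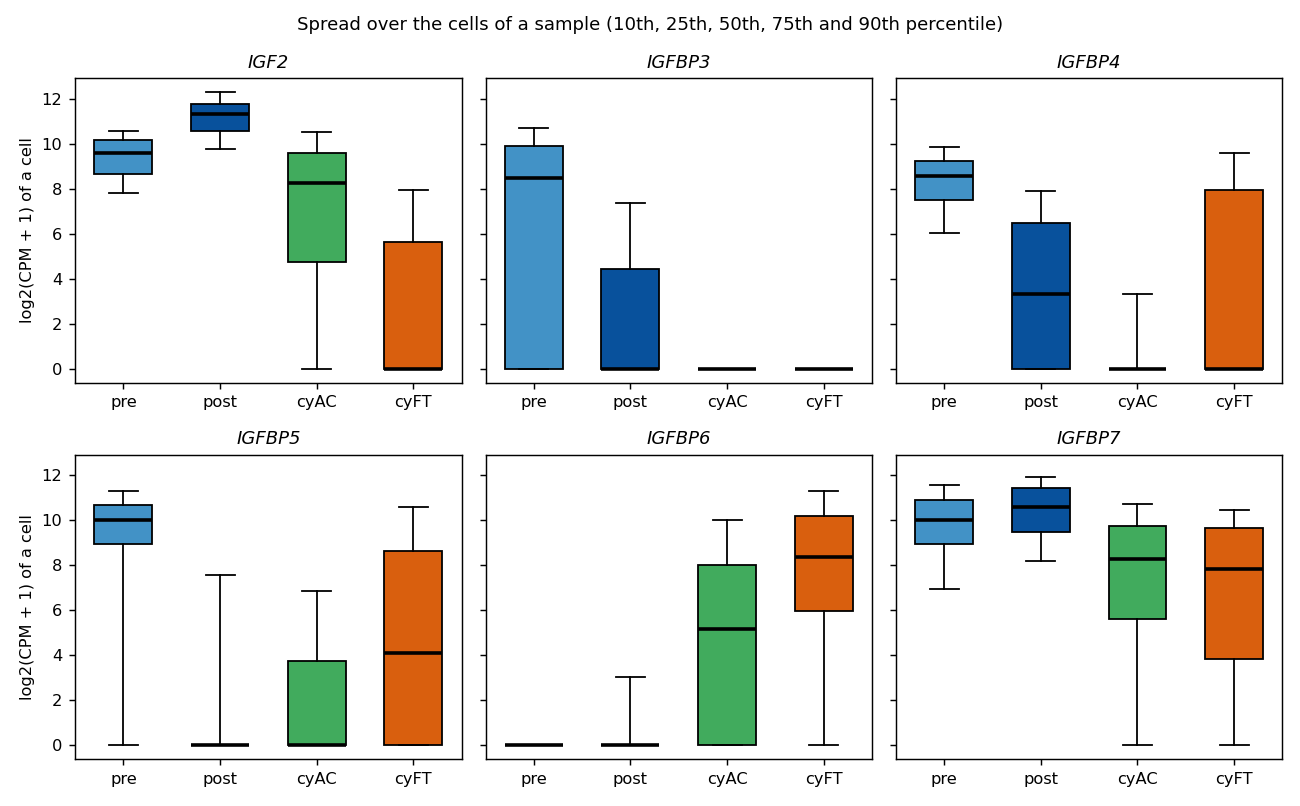
Level per cell, as log2(CPM + 1), of 6 genes in the 320 cells of each sample of the 4-condition matrix. Boxes span the 25th to the 75th percentile, the thick line is the median, and whiskers reach the 10th and 90th percentile. The median cell has *IGFBP5* at 1009 CPM in pre-transplant and at 0 CPM in post-transplant cyiPS-Cart, and *IGFBP6* at 34.4 CPM in cyAC and 331 CPM in cyFT.

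Cells of cyAC and cyFT were then divided by collagen. In cyAC, 276 cells held *COL2A1* and no *COL1A1* reads, 19 held *COL1A1* reads, and 25 held neither. In the first class *IGFBP7* took 71.5% of the IGFBP reads and *IGFBP6* 23.1%, with *IGF2* at 579 CPM, *IGFBP7* at 628 CPM, *IGFBP6* at 203 CPM, *IGFBP5* at 28.5 CPM and *IGFBP4* at 3.68 CPM. The 19 cells with *COL1A1* had *IGFBP6* at 1832 CPM, *IGFBP5* at 1312 CPM, *IGFBP4* at 259.9 CPM and *IGFBP7* at 808 CPM, and the 25 with neither collagen had *IGFBP6* at 1324 CPM, *IGFBP5* at 1293 CPM and *IGFBP2* at 356 CPM. Single cells weighed on these small classes. Without the cell with most reads of the gene, a step chosen after seeing the data, *IGFBP5* was at 505 CPM in the cells with *COL1A1* reads and at 448 CPM in those with neither collagen, *IGFBP4* at 168 CPM in the former, and *IGFBP6* at 1591 and 1015 CPM. *IGFBP5*, *IGFBP4* and *IGFBP2* were low in the bulk of cyAC cells, and *IGFBP7* was not. Median reads per cell were 30768.5, 29647 and 24986 in the 3 classes.

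The collagen classes of cyFT gave a like picture for *IGFBP4* to *IGFBP6* and another for *IGFBP7*. The 84 cells with *COL2A1* and no *COL1A1* reads had *IGFBP6* at 210.0 CPM, *IGFBP7* at 68.5 CPM, *IGFBP5* at 12.1 CPM and *IGFBP4* at 6.92 CPM. Of their IGFBP reads, 69.3% were *IGFBP6* reads. The 203 cells with *COL1A1* reads had *IGFBP6* at 1232 CPM, *IGFBP7* at 771 CPM, *IGFBP5* at 595 CPM and *IGFBP4* at 233 CPM. The cells with neither collagen, 33 in number, had *IGFBP5* at 873 CPM, *IGFBP6* at 476 CPM and *IGFBP4* at 646 CPM. Without the top cell of the gene, *IGFBP4* was at 2.72 CPM in the first class, while *IGFBP5* was at 10.8, 557 and 660.5 CPM in the 3 classes and *IGFBP6* at 197, 1159.7 and 385 CPM. Class by class, *IGFBP5* was thus lower in cyFT than in cyAC with all cells, but in the classes with *COL1A1* reads and with neither collagen it was higher once the top cell was left out. *IGFBP6* was lower in cyFT in those 2 classes either way. *IGFBP7* was thus 628 CPM in the *COL2A1* class of cyAC and 68.5 CPM in that of cyFT, while *IGFBP6* was at 203 and 210.0 CPM, with intervals of 195 to 212 and 197 to 224 CPM. *IGF2* was at 579 and 104 CPM in these classes, so its lower level in cyFT was seen among cells with *COL2A1* alone too. No *IGF1* read fell in the *COL2A1* class of either tissue. The cyFT cells with *COL2A1* alone were the deepest of that tissue, with a median of 47802.5 reads against 23049.

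**Figure D5:**
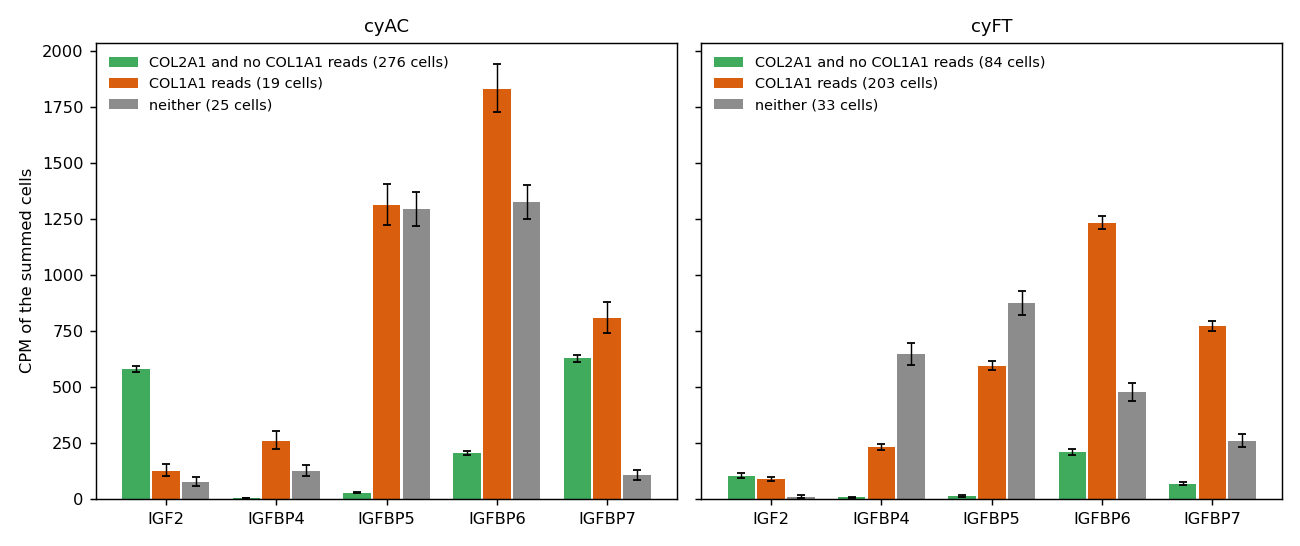
Summed level (CPM, linear axis from 0) of *IGF2* and 4 binding proteins in cells of cyAC and cyFT divided by collagen reads, with 95% counting intervals. *IGFBP5* and *IGFBP6* are higher in the cells with *COL1A1* reads of both tissues (1312 and 1832 CPM in cyAC, 595 and 1232 CPM in cyFT) than in those with *COL2A1* alone (28.5 and 203 CPM, 12.1 and 210.0 CPM). The cyAC value of *IGFBP5* is 505 CPM without 1 of the 19 cells, which the interval does not cover.

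A few cyFT cells with immune markers had much *IGFBP4*. The 9 listed immune markers summed to 747 CPM in cyFT and to 9.44 to 36.5 CPM in the other 3 samples of the 4-condition matrix. Among them *CD14* was at 247 CPM, *LYZ* at 269.8 CPM and *PTPRC* at 42.9 CPM in cyFT, while *CD3E* was at 0. The 4 osteoblast markers also summed higher in cyFT, at 1117 CPM against 5.17 to 36.9 CPM in the others, mostly through *IBSP* in 33 cells, and 5 mural and smooth muscle markers summed to 203 CPM in cyFT against 51.8 CPM in cyAC and 127.5 CPM before and 49.5 CPM after transplantation. The part of the osteoblast markers in the IGF values was not tested. Without the 114 cyFT cells with reads of 2 or more immune, endothelial or mural markers, *IGFBP6* still took 42.2% of the IGFBP reads. In cyFT, 16 cells held reads of at least 3 of the 9 markers. All 16 held *IGFBP4*, at 639 CPM in sum, and it took 73.9% of their IGFBP reads. They held 505 of the 2036 *IGFBP4* reads of cyFT, so most of these reads lay in other cells. The other 304 cyFT cells had *IGFBP4* at 149 CPM, *IGFBP5* at 417 CPM, *IGFBP6* at 796 CPM and *IGFBP7* at 455 CPM. Without cells of that kind in either sample, the log2 ratio of *IGFBP4* in post-transplant cyiPS-Cart over cyFT was -0.95, no longer 2-fold, and that of *IGFBP6* in cyFT over cyAC was 1.10, past 2-fold.

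In graft cells most cells with *COL1A1* reads also held *COL2A1* reads, so that the classes are unlike those of cyAC and cyFT. Only 19 of 77 before transplantation and 7 of 54 after it lacked *COL2A1*, against 16 of 19 in cyAC and 170 of 203 in cyFT. In pre-transplant cyiPS-Cart of the 4-condition matrix, the 77 cells with *COL1A1* reads and the 242 with *COL2A1* alone had *IGF2* at 625 and 909 CPM, *IGFBP5* at 1600.5 and 1146 CPM, *IGFBP3* at 790.3 and 652 CPM, *IGFBP4* at 363 and 433 CPM and *IGFBP7* at 1363 and 1349 CPM. In the larger pre-transplant set, with 928 and 2588 such cells, *IGF2* was at 669 and 928 CPM, *IGFBP5* at 1497 and 1159.7 CPM and *IGFBP6* at 10.6 and 1.95 CPM. After transplantation, the 54 cells with *COL1A1* and the 265 with *COL2A1* alone had *IGF2* at 1643 and 3033 CPM, *IGFBP4* at 156 and 63.1 CPM, *IGFBP5* at 94.1 and 61.0 CPM, *IGFBP6* at 63.3 and 18.9 CPM and *IGFBP7* at 2298 and 1842 CPM. The 7 post-transplant cells with *COL1A1* and no *COL2A1* reads had *IGFBP5* at 416 CPM, *IGFBP4* at 401 CPM, *IGFBP6* at 181 CPM and *IGFBP7* at 499 CPM. Cells were also divided by reads of *PRG4*. In the larger pre-transplant set the 610 cells with *PRG4* reads had *IGFBP7* at 2029.8 CPM, *IGFBP5* at 1339.7 CPM, *IGFBP3* at 403 CPM and *IGFBP4* at 226 CPM, and the 2917 without had 1287, 1242, 649 and 441 CPM. In the smaller set, with 53 and 267 such cells, *IGFBP5* went the other way, at 1062 and 1327 CPM. There *IGFBP7* was at 2102 and 1178 CPM, *IGFBP3* at 525 and 730 CPM and *IGFBP4* at 201 and 462 CPM. In post-transplant cells, 227 with and 93 without *PRG4* reads, *IGFBP7* was at 1947 and 1832 CPM, *IGFBP5* at 54.4 and 108 CPM, *IGFBP3* at 50.2 and 40.99 CPM and *IGFBP4* at 83.9 and 70.7 CPM. As ratios, *IGFBP7*, *IGFBP3* and *IGFBP4* thus lay further apart before transplantation and *IGFBP5* after it. The direction of *IGFBP5* before transplantation differed between the sets, so none is read.

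Across cells of 1 sample, members went together weakly, by Spearman correlation of log2(CPM + 1), given as a description over cells that share a library and differ in depth. *IGF2* correlated with *COL2A1* at 0.33 in pre-transplant cyiPS-Cart, 0.23 after transplantation, 0.35 in cyAC and 0.14 in cyFT (320 cells each), and with *COL1A1* at -0.25, -0.34, -0.26 and 0.04. Among 2905 genes read in at least 25% of the cells of all 4 samples, *COL2A1*, *COL11A1* and *COL9A2*, all collagens of hyaline cartilage, had the highest mean correlation with *IGF2* (0.26, 0.26 and 0.25). For *IGFBP7* the 3 genes were the fibrillar collagen gene *COL3A1* and the matrix proteoglycan genes *FMOD* and *PRELP* (0.30, 0.29 and 0.29), but with *COL3A1* it was 0.45 in cyFT and 0.07 after transplantation. *IGFBP4* and *IGFBP7* went against each other at -0.32 in both sets of pre-transplant cells. In cyFT the pairs among *IGFBP4* to *IGFBP7* had correlations of 0.15 to 0.29, and *IGFBP4* and *IGFBP5* went against *COL2A1* at -0.43 and -0.40.

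Other genes of the IGF pathway were taken from a list of 48, of which 42 are in the matrices. In pre-transplant cyiPS-Cart over cyiPSC, 13 of the 29 compared were called higher and 5 lower (16% and 35.5% of all genes were). Of the 5, *GRB10* and *IGF2BP2*, outside the rule for named genes, did not reach 2-fold with TMM factors, at log2 ratios of -0.77 and -0.80. The median log2 ratio of the 29 was 0.19, against -0.56 for all genes. *DLK1*, an imprinted gene of fetal tissues, was 196-fold higher, *MMP3*, a matrix protease that also cuts IGFBP3, 49.5-fold, and *HTRA1*, a secreted protease that cuts several IGFBPs, 45.6-fold, at 1715 CPM. *IGF2BP3* and *IGF2BP1*, fetal RNA binding proteins named for their binding to *IGF2* RNA, were at 619.8 and 40.9 CPM in cyiPSC and at 15.9 and 0.803 CPM in pre-transplant cyiPS-Cart, and *PIK3CB*, a catalytic subunit of PI3 kinase, at 46.2 and 6.84 CPM. In post- over pre-transplant cyiPS-Cart 3 of 24 were called higher and 3 lower (6.77% and 18.4% of all genes were). The imprinted growth inhibitor *CDKN1C* was 3.17-fold higher, *STC2*, an inhibitor of the pappalysin proteases, 3.02-fold and *PLAGL1* 2.42-fold. The lower ones were *PIK3CA*, *SHC1* and *CTSD* with log2 ratios of -1.38, -1.21 and -1.19, of which *SHC1* and *CTSD* were at -0.99 and -0.96 with TMM factors.

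In cyFT over cyAC 0 of 20 were called higher and 1, *MMP3*, was called lower, at 439 against 1441 CPM (8.31% and 3.35% of all genes were). In post-transplant cyiPS-Cart over cyAC 10 of 24 were called higher and 3 lower (8.86% and 14.8% of all genes were). *DLK1* was at 4699 CPM in the graft against 16.7 CPM in cyAC and 4.60 CPM in cyFT. *PAPPA2*, a protease of IGFBP3 and IGFBP5, was at 87.4 and 74.3 CPM before and after transplantation, at 0.507 CPM in cyAC and at 0 in cyFT, so that by the floor of 3 reads it was at least 274-fold higher in post-transplant cyiPS-Cart than in cyFT, with an exact 95% lower limit of 223-fold. *CDKN1C* was 11.4-fold higher than in cyAC and 9.72-fold higher than in cyFT. The 3 called lower against cyAC were *MMP3*, *PIK3CA* and *FOXO1*, with log2 ratios of -2.27, -1.19 and -1.04, the last of which was -0.93 with TMM factors. Against cyFT 7 of 24 were called higher and 0 lower (6.16% and 19.6% of all genes were).

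By the RefSeq gene order of a different assembly, *IGFBP2* and *IGFBP5* are next to each other, as are *IGFBP3* and *IGFBP1*. *IGFBP2* and *IGFBP5* went opposite ways in pre-transplant cyiPS-Cart over cyiPSC (6.69-fold lower and 205-fold higher) and in cyFT over cyAC (5.61-fold lower and 2.04-fold higher). Both were lower in post-transplant cyiPS-Cart than in pre-transplant cyiPS-Cart (22.7-fold and 19.1-fold), cyAC (17.2-fold and 2.85-fold) and cyFT (3.07-fold and 5.81-fold), where *IGFBP2* rests on 1 post-transplant cell. In these data *IGFBP1* had no read in the cells where *IGFBP3* was highest.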

How the data were processed

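The authors deposited whole-number read counts per gene and cell of 3 TAS-Seq transcriptome libraries as 2 matrices; 3 hashtag libraries were not used here. Reads had been matched by the authors to monkey cDNA of Ensembl (Macaca_fascicularis_6.0 in the methods; the submitters' processing notes also name GRCh38, cutadapt 3.4, Bowtie2 2.4.2 and R 3.6.3). Cells beyond the knee of the read curve were kept and pooled conditions split by hashtag. Counts taken for diffused RNA in strongly expressed genes had been set to 0, cells dropped by a mitochondrial threshold not given in the sources used here, and each condition of 1 matrix reduced to 320 cells. Reads are not molecules, so PCR copies stay in the counts. Cells were taken to conditions by the prefix of their names and the code supplied with the paper. The label of the post-transplant sample gives the wild-type genotype of the recipient, whereas the methods describe donor cells with EGFP, and EGFP reads were in all of them.

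Reads were summed per condition and divided by all listed reads (CPM). With 1 sample per condition no test was made. Ratios carry exact conditional 95% intervals. Log2 ratios use a pseudocount of 1 CPM over genes with a mean of at least 20 CPM. A gene below that level in 1 sample passed only through the other, which set its direction. The calculation was also run on simulated counts with known ratios, which checks the arithmetic and not these samples. Thinned shares are expectations over random draws, leaving out 60 cyiPSCs, 353 pre-transplant cells of the 2-condition matrix, and 1 pre-transplant, 12 cyAC and 32 cyFT cells of the other. A median of at least 27499.5 reads per cell sets the depth, and a count of 0 was read as up to 3 reads or cells. No barcode carried 2 cell names in a library. The genes, the pathway list and the marker lists were chosen with earlier results of these data known. The text names the 9 genes and, of the other pathway genes, up to 3 per direction and comparison by size of the log2 ratio among those past 2-fold; *IGF2R* and the immune markers fall outside this rule. Likeness of genes is the mean Spearman correlation over the 4 samples, among genes read in at least 25% of the cells of each. All 9 symbols matched RefSeq genes (a different assembly, used only for names and gene order). Alternatives were another weight of cells, stricter cell filters, scrublet doublets, other pseudocounts and minimum levels, thinning, CPM without mitochondrial genes and TMM factors of edgeR 4.0.16, with Python 3.11.15, pandas 2.3.3, scipy 1.17.1, scanpy 1.11.5 and R 4.3.3.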

Additional observations from a re-analysis of the deposited data

How the results depend on the processing

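The gene with most IGFBP reads in each sample was the same under every alternative run: *IGFBP2* in cyiPSC, *IGFBP7* in cyAC and in the graft before and after transplantation, and *IGFBP6* in cyFT. Its share, where it left the counting interval, took these values. With the mean of the cells' own CPM it was 67.8% in cyiPSC, 39.7% and 36.8% in the larger and smaller pre-transplant set, 90.04% in post-transplant cyiPS-Cart, 50.5% in cyAC and 39.6% in cyFT. Without the 1% of cells with most IGFBP reads it was 72.9%, 38.3%, 36.5%, 88.9%, 56.7% and 39.5% in the same order. Dropping cells with under 500 genes, or with a mitochondrial share over 3 median absolute deviations above the sample's median, gave 38.3% in the larger pre-transplant set, 90.8% in post-transplant cyiPS-Cart and 54.6% in cyAC. Scrublet marked 14 of 2500 cyiPSCs and 0 of 3527 pre-transplant cells of the same library, and is not taken to have worked there. The share in cyiPSC without those 14 cells was 72.4%, given as a value only. The larger pre-transplant set in place of the smaller gave 38.1%. Without cells that held reads of 2 or more immune, endothelial or mural markers, chosen after seeing the data, it was 69.2% in cyiPSC, where that left 394 of 2500 cells, and 38.5%, 90.3% and 52.8% in the larger pre-transplant set, post-transplant cyiPS-Cart and cyAC.

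The number of genes past 2-fold was 3289, 1351, 654, 1257 and 1439 in the comparisons pre-transplant over cyiPSC, post- over pre-transplant, cyFT over cyAC, post-transplant over cyAC and post-transplant over cyFT. Without a minimum level it was 5945, 3033, 2348, 3184 and 3500, and with a mean of at least 100 CPM it was 1075, 471, 180, 423 and 472, since the alternative tests more or fewer genes. With a pseudocount of 10 CPM it stayed within 1.5 times. Of the 45 log2 ratios of the IGF genes, 0 changed sign among those past 2-fold under any alternative. TMM factors put 6 on the other side of 2-fold, a pseudocount of 10 CPM put 7 and one of 0.1 CPM put 3. *IGFBP5* in cyFT over cyAC was at 0.99 with a pseudocount of 10 CPM. Leaving out the cell with most reads of a gene in each sample, chosen after seeing the data, moved 2 across 2-fold, *IGFBP6* in cyFT over cyAC to 1.02 and *IGF1R* in post-transplant cyiPS-Cart over cyAC to 1.12. Reads per kb of transcript, named as an alternative, were not run, since no transcript lengths were at hand. No paired analysis was possible because each condition is 1 sample.

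With 320 cells a share of 0.938% of cells is the limit read from a count of 0, and cyAC and cyFT were sequenced less deeply than the graft. The library of cyiPSC and pre-transplant cells has no low nonzero counts of *IGFBP3*, *IGFBP5* or *IGFBP7*, and the post-transplant library none of *IGFBP5* or *IGFBP6*. That the authors' correction set such counts to 0 is inferred from this gap alone. Library, depth and tissue cannot be told apart for post-transplant cyiPS-Cart, and the spread between animals or cultures was not measured.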
